A study of Mus musculus with 19 samples.

Results

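The cytosolic ribosomal protein genes encode the proteins of the large (Rpl) and small (Rps) subunits of the ribosome that works in the cytosol. They were chosen by gene symbol alone: every probe whose symbol begins with Rpl or Rps and a digit, or is Rpsa, Rplp0, Rplp1 or Rplp2, without the S6 kinase genes, Rps19bp1 and pseudogenes. This gave 65 of the 16593 gene symbols on the array, 40 with large subunit and 25 with small subunit names, measured by 83 probes. Each gene was represented by its brightest probe, and 58 genes were detected on enough arrays to be tested among 11072 genes in all.

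RNA from prefrontal cortex of female mice aged 20 months was hybridised to 19 Illumina bead arrays, 1 sample each. The 4 mice labelled 3xTgAD/Polb+/- carry the APPswe, PS1M146V and tauP301L mutations of the 3xTgAD Alzheimer disease model and 1 intact copy of Polb, the gene of DNA polymerase beta. The 6 3xTgAD mice carry the 3 mutations with both Polb copies, the 4 Polb+/- mice carry 1 intact Polb copy and no transgene, and the 5 wild type mice carry neither. The strain label of every sample is C57BL/6. In this model the APP and tau transgenes are known to run from a neuronal promoter and the PS1 mutation to be a knock-in, while the missing Polb copy affects every cell. The Polb heterozygotes were crossed with 3xTgAD mice to give the combined genotype. The comparisons ask how the transgenes, the loss of a Polb copy and both together bear on these genes at old age.

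Ribosomal proteins are made in equal amounts for assembly with ribosomal RNA in the nucleolus, and their mRNAs are among the most abundant of a cell. These mRNAs typically begin with an unbroken run of pyrimidines, the terminal oligopyrimidine tract, which couples their translation to growth signalling through mTOR and Larp1. Neurons keep many ribosomes in the cell body and dendrites, and in Alzheimer disease ribosome function in cortex has been described as impaired at an early stage.

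Some sequence features at the start sites were more frequent in these genes than in all genes, though none was found in most of them. RefSeq promoter entries (GRCm38.p6, 250 bases before to 50 after the annotated start) matched 56 of the 65 genes. A run of 8 or more C or T letters on the coding strand, within 10 bases before to 20 after a start, was present in 22 of the 56 genes (39.3%), against 13% of 27025 genes in the table. The letters CCGGAAG, the core of sites known to bind ETS family factors, stood in the promoter on either strand in 22 genes (39.3%), against 9.93% of all genes. AAGATGGC, the core of the YY1 site, was found on either strand in 6 genes (10.7%, against 3.19%) and TATAAA in 6 (10.7%, against 15.7%). The windows below belong to members described in the results, given as 30 bases in 5′ to 3′ direction, with a pyrimidine run of 8 or more in capitals. They lie at chr10:128626487-128626516 (minus strand) for Rps26, at chr3:130730379-130730408 and chr3:130730318-130730347 (both minus strand) for the first and the other start of Rpl34, at chr9:66946076-66946105 (plus strand) for the first of 2 starts of Rps27l, at chr9:64173377-64173406 (plus strand) for Rpl4 and at chr5:107900518-107900547 (plus strand) for Rpl5.
Rps26: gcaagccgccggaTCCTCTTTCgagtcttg
Rpl34, first start: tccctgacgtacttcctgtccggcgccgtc
Rpl34, other start: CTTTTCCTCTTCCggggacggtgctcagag
Rps27l: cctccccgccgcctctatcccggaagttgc
Rpl4: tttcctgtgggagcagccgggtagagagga
Rpl5: cgtcgcttgcgtgctggtggtgctacatac
Rps26 and Rpl34 have such a run, and Rpl34 has it at only 1 of its 2 annotated starts. Annotated starts can differ from the starts used in cortex, so a window without capitals says only that these letters are not there.

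Between 13205 and 14396 probes were detected per array, and the number of arrays limits the precision of every value below. The source labels spell the age as "20- month" on 11 arrays and "20 month" on 8, and each genotype holds both spellings. The number of probes detected was 13876 to 14396 on the "20- month" arrays and 13205 to 13562 on the "20 month" arrays, without overlap. The labels do not say what the spelling stands for, so it was tried as a block and each spelling was fitted alone. Polb, the targeted gene, had log2 intensities of 7.21, 7.09, 6.53 and 7.16 on the 3xTgAD/Polb+/- arrays, 6.63 to 7.79 (median 7.54) on 3xTgAD, 7.26, 7.21, 6.95 and 6.98 on Polb+/-, and 7.97, 7.60, 7.74, 7.82 and 7.55 on wild type. The 3xTgAD arrays labelled replicates 4 and 6 lay at 6.89 and 6.63, levels otherwise seen only in Polb heterozygotes, so their label is in doubt. The 3xTgAD arrays 2 and 5 share a code in the column headings and may come from 1 mouse. Markers of cortical excitatory neurons (6 of 8 listed tested) averaged 10.50 to 11.24 over the arrays, while striatal projection neuron markers (9 of 13 tested) averaged 8.25 to 9.12 on 3xTgAD/Polb+/-, 8.45 to 10.40 on 3xTgAD, 9.94 to 10.72 on Polb+/- and 8.14 to 10.25 on wild type. All listed excitatory and interneuron markers with a symbol on the array were detected on all 19 arrays, apart from Neurod6 and Gad2, each detected on 0.

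The ribosomal protein genes were lower together on 3 arrays, all from transgenic mice. The median log2 intensity of the 58 genes was 11.73, 11.05, 12.56 and 12.25 on the 3xTgAD/Polb+/- arrays. It was 11.72 to 12.35 on the 3xTgAD arrays, 12.51, 12.39, 12.39 and 12.49 on Polb+/-, and 12.32, 12.36, 12.29, 12.41 and 12.34 on wild type. The low arrays are 3xTgAD/Polb+/- replicates 1 and 2 and 3xTgAD replicate 3 (11.72), and the other 5 3xTgAD arrays lay at 12.32 to 12.35. The array medians averaged 11.90 ± 0.660 (SD) over the 4 3xTgAD/Polb+/- arrays and 12.23 ± 0.250 (SD) over the 6 3xTgAD arrays. They averaged 12.45 ± 0.0647 (SD) over the 4 Polb+/- arrays and 12.35 ± 0.0468 (SD) over the 5 wild type arrays, a narrower spread than in either transgenic genotype. The other 16 arrays also differed. Relative to each gene's median over the 19 arrays, the median of the 58 genes was highest on 3xTgAD/Polb+/- replicate 3, at 0.21, and next on Polb+/- replicate 4, at 0.17. It was -0.15 on 3xTgAD/Polb+/- replicate 4. The same median over all genes was 0 on each of these arrays.

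**Figure D1:**
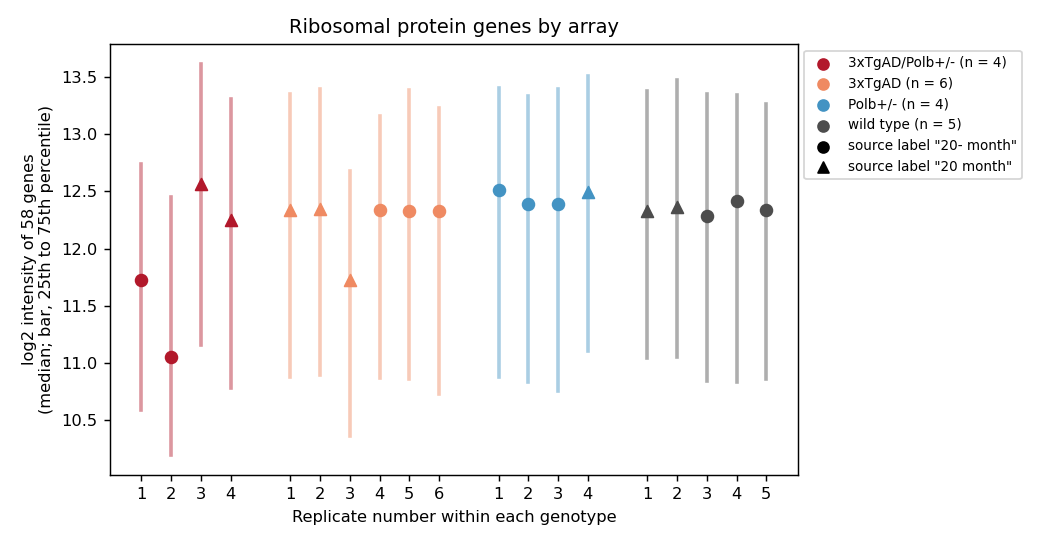
Median log2 intensity of the 58 ribosomal protein genes on each array (points) with the interquartile range over the genes (bars), by genotype and replicate number, with the spelling of the age label as the symbol. The arrays 3xTgAD/Polb+/- 1 and 2 and 3xTgAD 3 lie at 11.73, 11.05 and 11.72, and the other 16 between 12.25 and 12.56.

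The same genes carried the shift on the 3 low arrays. Relative to each gene's median over the 19 arrays, the median of the 58 genes was -1.03 on 3xTgAD/Polb+/- replicate 2, -0.50 on 3xTgAD/Polb+/- replicate 1 and -0.53 on 3xTgAD replicate 3. On 3xTgAD/Polb+/- replicate 2, 43 of 58 genes (74.1%) lay below all 16 other arrays, against 19.8% of all genes. On 3xTgAD replicate 3 this held for 37 genes (63.8%, against 11.9% of all genes), and on 3xTgAD/Polb+/- replicate 1 for 34 (58.6%, against 10.5%). All 3 arrays were below the other 16 for 32 of the 58 genes (55.2%), against 4.59% of all genes. These arrays were singled out by these very values, so the counts are a description and carry no test. Across the 58 genes, the shifts of these arrays correlated with Pearson's r of 0.87 (both 3xTgAD/Polb+/- arrays), 0.72 (3xTgAD/Polb+/- replicate 2 with 3xTgAD replicate 3) and 0.81 (3xTgAD/Polb+/- replicate 1 with 3xTgAD replicate 3). Genes are not independent replicates, and the shifts share the 19-array median they are taken from.

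Not every gene took part. Rps26, which lies at the mRNA exit of the small subunit, was shifted by -1.82, -1.26 and -1.12 on 3xTgAD/Polb+/- replicates 2 and 1 and 3xTgAD replicate 3. Rps27l, the p53-responsive relative of Rps27, was shifted by -1.76, -1.49 and -1.02 on the same arrays. Rpl35, at the exit of the peptide tunnel, was shifted by -1.52, -0.84 and -1.05. These genes stand at the low end of the 58. At the other end 13 genes were not below the 16 other arrays on any of the 3, among them Rpl3, a protein near the peptidyl transferase centre, Rpl4, which lines the peptide tunnel, and Rpl5, a carrier of 5S ribosomal RNA. Rpl3 was shifted by 0.18, 0.37 and 0.17 and Rpl5 by 0.23, 0.30 and 0.05 on these arrays. Both therefore stood slightly above their medians where most of the family stood far below. Whether a gene lies below the 16 other arrays also depends on its spread over them. Rpl29, 1 of the 13, was shifted by -0.75 on 3xTgAD/Polb+/- replicate 2 and -0.72 on 3xTgAD replicate 3. It ranged over 1.71 on the other 16. Of the genes with a promoter entry, the 19 with a pyrimidine run had a median shift of -1.18 on 3xTgAD/Polb+/- replicate 2, and the 31 without one -0.95. On that array the genes with CCGGAAG likewise had a median of -1.18, and those without it -1.01. That array was chosen for its low values, and a link between these letters and the shift was not tested. For 3xTgAD/Polb+/- minus wild type the median log2 difference was -0.49 with a pyrimidine run and -0.32 without. The differences overlapped, from -0.88 to 0.13 with a run and from -0.90 to 0.51 without.

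**Figure D2:**
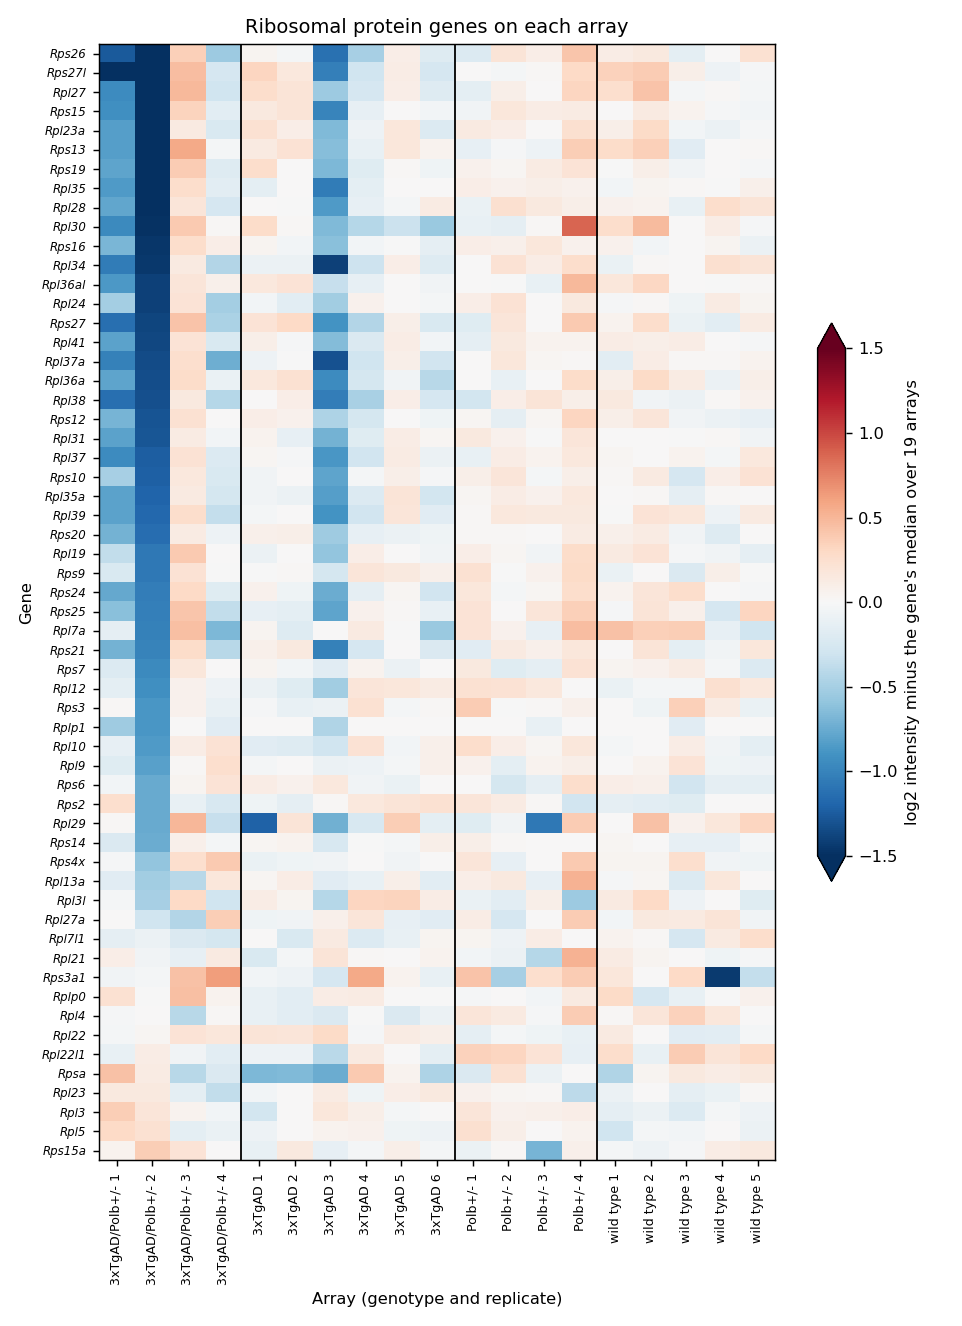
Log2 intensity of each of the 58 genes (lines) on each of the 19 arrays (columns, by genotype and replicate) minus the gene's median over the 19 arrays, with genes ordered by the value on 3xTgAD/Polb+/- replicate 2. Most lines are blue on 3xTgAD/Polb+/- 1 and 2 and 3xTgAD 3, and the bottom lines, with Rpl3 and Rpl5, are not.

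The combined genotype was compared with wild type first. The 58 genes had a median log2 difference of -0.44 for 3xTgAD/Polb+/- minus wild type, a fold of 0.737. Without 3xTgAD/Polb+/- replicate 2 this median was -0.21, and without replicate 3 it was -0.65. With all arrays, 51 of 58 (87.9%) were below 0, against 46.4% of all genes, whose median was 0.02. In bulk cortex, fewer cells rich in these mRNAs and less of them per cell cannot be told apart. None passed limma's test after Benjamini-Hochberg adjustment over 11072 genes (0 of 58, against 0.0181% of all genes). At an unadjusted p under 0.05, 28 of 58 (48.3%) were lower, against 7.6% of all genes, and 1 was higher, against 5.62%. The 28 include Rplp1, whose level is capped on most arrays as described below. The smallest adjusted p among the members was 0.266, and the 2 groups overlapped for all 58 (1.22% of all genes were lower and 1.49% higher without overlap).

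Rps26 measured 10.85, 10.28, 12.47 and 11.56 on the 3xTgAD/Polb+/- arrays, 10.99 to 12.21 (median 11.99) on 3xTgAD, 11.90, 12.30, 12.21 and 12.53 on Polb+/-, and 12.21, 12.25, 11.96, 12.11 and 12.34 on wild type. Replicates 1, 2 and 4 of 3xTgAD/Polb+/- were below every wild type array, while replicate 3 was above every one. The log2 difference of Rps26 between 3xTgAD/Polb+/- and wild type was -0.88 ± 0.313 (SE, limma adjusted p = 0.266).

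Rpl34, a large subunit protein, measured 11.15, 10.76, 12.35 and 11.76 on the 3xTgAD/Polb+/- arrays, 10.81 to 12.31 (median 12.07) on 3xTgAD, 12.21, 12.43, 12.32 and 12.47 on Polb+/-, and 12.11, 12.23, 12.21, 12.45 and 12.40 on wild type. Of the 4 3xTgAD/Polb+/- arrays, 3 were below every wild type array and replicate 3 lay within the wild type range. Its difference was -0.78 ± 0.274 (SE, limma adjusted p = 0.266). Rpl24, which forms a bridge between the subunits, measured 11.66, 10.77, 12.38 and 11.66 on 3xTgAD/Polb+/-, against 12.16, 12.19, 12.11, 12.30 and 12.21 on wild type. Again 3 of the 4 were below every wild type array, but replicate 3 was above all of them, and the difference was -0.57 ± 0.204 (SE, limma adjusted p = 0.266).

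The other 7 genes were above 0 in this comparison. Rpl3 measured 13.97, 13.78, 13.65 and 13.56 on 3xTgAD/Polb+/-, 13.33 to 13.77 (median 13.60) on 3xTgAD, 13.79, 13.66, 13.68 and 13.70 on Polb+/-, and 13.47, 13.52, 13.39, 13.57 and 13.53 on wild type. Here 3 of the 4 3xTgAD/Polb+/- arrays and every Polb+/- array were above the highest wild type array. The log2 difference of Rpl3 was 0.24 ± 0.101 (SE, limma adjusted p = 0.309) for 3xTgAD/Polb+/- minus wild type and 0.18 ± 0.0701 (SE, limma adjusted p = 0.517) for Polb heterozygotes minus mice with both copies, averaged over the transgene. Rps3a1, a small subunit protein, had the largest positive difference of the 58 in the first of these, 0.51 ± 0.284 (SE, limma adjusted p = 0.452). Its wild type replicate 4 lay at 7.20, and the other 18 arrays lay between 8.14 and 9.27.

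**Figure D3:**
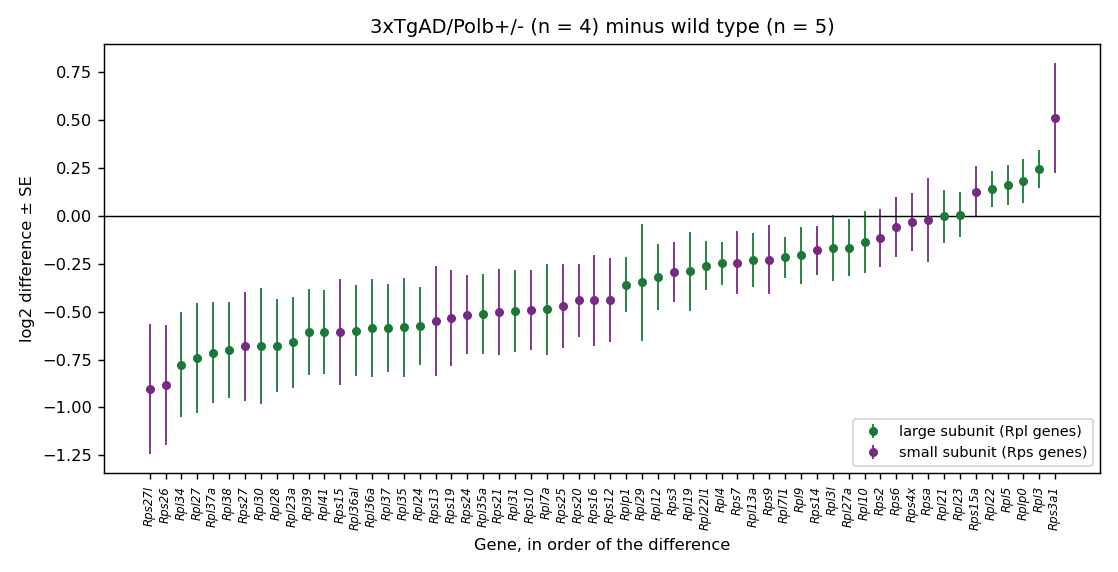
Log2 difference of each of the 58 genes for 3xTgAD/Polb+/- minus wild type with its standard error from limma (bars), in ascending order and coloured by subunit. The genes run from -0.90 (Rps27l) to 0.51 (Rps3a1), with 51 below 0, and none passed the adjusted test; the points of Rplp1 (capped) and Rpl22l1 (below detection in 3xTgAD/Polb+/-) are no measured differences.

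The transgenes alone gave smaller differences. For 3xTgAD minus wild type the median was -0.13, with 48 of 58 genes below 0 (51.8% of all genes) and none past the adjusted test (0 of 58, against 0.00903% of all genes). At an unadjusted p under 0.05 there were 2 lower (3.45%, against 3.01% of all genes) and 1 higher (1.72%, against 2.65%), Rpl22. Of the 2 lower, Rpl4 was measured in both groups, while Rpl22l1 passed the detection filter only through arrays without the transgenes, so its direction was set by the filter. These shares are near those of all genes. Rpl4 measured 9.26, 9.29, 8.86 and 9.30 on 3xTgAD/Polb+/-, 9.06 to 9.28 (median 9.15) on 3xTgAD, 9.47, 9.42, 9.27 and 9.67 on Polb+/-, and 9.30, 9.46, 9.63, 9.45 and 9.28 on wild type. All 6 3xTgAD arrays lay below every wild type array, at a difference of -0.28 ± 0.101 (SE, limma adjusted p = 0.728). Rpl4 was the 1 member of 58 lower without overlap (1.72%, against 0.47% of all genes). Rpl4 was shifted by 0.005, -0.02 and -0.22 on 3xTgAD/Polb+/- replicates 2 and 1 and 3xTgAD replicate 3. On none of these was it below all 16 other arrays, of which 3xTgAD/Polb+/- replicate 3 was the lowest, at 8.86.

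Loss of a Polb copy in mice without the transgenes left the genes at or slightly above wild type. For Polb+/- minus wild type the median was 0.03, with 39 of 58 above 0 (49.3% of all genes), none past the adjusted test (0 of 58, against 0% of all genes) and none at an unadjusted p under 0.05 (1.65% of all genes lower, 1.71% higher). Rpl3, Rpl5 and Rpl35a were above wild type without overlap (5.17% of members, against 0.75% of all genes). Rpl5, which with Rpl11 is known to restrain the p53 ligase Mdm2 when ribosome assembly fails, measured 12.62, 12.48, 12.39 and 12.45 on Polb+/-, against 12.09, 12.36, 12.35, 12.39 and 12.30 on wild type. Its difference was 0.19 ± 0.104 (SE), with a limma adjusted p above 0.99, and the lowest Polb+/- array and the highest wild type array both round to 12.39.

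The remaining comparisons share arrays with the ones above and with each other. For 3xTgAD/Polb+/- minus 3xTgAD the median was -0.25 (-0.043 without 3xTgAD/Polb+/- replicate 2 and -0.48 without replicate 3), with 47 of 58 below 0 (48.1% of all genes) and none past the adjusted test (0 of 58, against 0% of all genes). At an unadjusted p under 0.05, 3 were lower (5.17%, against 3.99% of all genes) and 0 higher (4.83% of all genes). Of these, 2 were Rpl23a and Rpl24, and the other was Rplp1, capped on 5 of the 6 3xTgAD arrays, where its p is not a measured one. For 3xTgAD/Polb+/- minus Polb+/- the median was -0.49 with 49 of 58 below 0 (45.1% of all genes), and again none passed the adjusted test (0 of 58, against 0.0903% of all genes). At an unadjusted p under 0.05, 32 were lower (55.2%, against 7.23% of all genes; 31 without Rplp1) and 1 higher (4.9% of all genes). Rpl7l1, a relative of Rpl7, was the 1 member lower in this comparison without overlap (1.72%, against 2.76% of all genes). For transgene carriers minus non-carriers, averaged over Polb status, the median was -0.30 with 48 of 58 below 0 (47.6% of all genes), and none passed the adjusted test (0 of 58, against 0.533% of all genes). At an unadjusted p under 0.05, 31 were lower (53.4%, against 9.19%; 30 without Rpl22l1) and 1 higher (6.76% of all genes). The smallest adjusted p of any member in any of the 8 contrasts was that of Rpl4 here, at -0.28 ± 0.0774 (SE, limma adjusted p = 0.106).

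Averaged over the transgenes, the difference between Polb heterozygotes and mice with both copies had a median of -0.11, 49 of 58 below 0 (49.6% of all genes) and no member past the adjusted test (0 of 58, against 0.0181% of all genes). At an unadjusted p under 0.05 this contrast held 1 member, Rpl3, which was higher (4.32% of all genes higher, 3.6% lower). The interaction asks whether losing a Polb copy has another effect with the transgenes than without them, and had a median of -0.32 with 51 of 58 below 0 (46.7% of all genes). None passed the adjusted test (0 of 58, against 0% of all genes) and none had an unadjusted p under 0.05 (1.47% of all genes lower, 1.75% higher).

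These medians changed with the arrays used. Without the 3 low arrays, an alternative chosen after seeing the data, the median was -0.04 for 3xTgAD/Polb+/- minus wild type, -0.05 for 3xTgAD minus wild type, -0.05 for 3xTgAD/Polb+/- minus Polb+/- and 0.03 for 3xTgAD/Polb+/- minus 3xTgAD. No member passed limma's adjusted test in any contrast. Of all genes, 0.0542% passed it for 3xTgAD/Polb+/- minus wild type, 0.0452% for 3xTgAD minus wild type and 0.181% for carriers minus non-carriers. For 3xTgAD/Polb+/- minus wild type 6 members had an unadjusted p under 0.05 (10.3%, against 11.2% of all genes), 3 of them lower. Without 3xTgAD/Polb+/- replicate 3, in which the genes were highest, 17 of 58 members passed limma's adjusted test for 3xTgAD/Polb+/- minus wild type, all lower, against 2.93% of all genes. The same was seen for 17 members for 3xTgAD/Polb+/- minus Polb+/- (2.36% of all genes) and 20 for carriers minus non-carriers (3.93% of all genes). Within the 11 "20- month" arrays, where 3xTgAD/Polb+/- is represented by replicates 1 and 2 alone, the median was -0.75 and 33 members passed, 32 lower and Rpl3 higher, against 14.1% of all genes. There, 33 members passed for 3xTgAD/Polb+/- minus 3xTgAD (5.91% of all genes), 34 for minus Polb+/- (11.5%), 30 for carriers (8.92%), 13 for Polb heterozygotes (1.45%) and 18 for the interaction (1.36%). The capped Rplp1 is 1 of the members counted in each of these contrasts but the last 2. For 3xTgAD minus wild type 0 passed limma's adjusted test there (0.434% of all genes), 4 had an unadjusted p under 0.05 (6.9%, against 9.02% of all genes), and the median was -0.06. Within the 8 "20 month" arrays, where 3xTgAD/Polb+/- is represented by replicates 3 and 4, the median for 3xTgAD/Polb+/- minus wild type was -0.08, 0 members passed limma's adjusted test (0.0632% of all genes) and 1 had an unadjusted p under 0.05 (1.72%, against 7.18% of all genes). With the spelling as a block this median was -0.47, 0 members passed limma's adjusted test (0.307% of all genes) and 33 had an unadjusted p under 0.05 (56.9%, against 20.1% of all genes). For 3xTgAD/Polb+/- minus Polb+/- 0 passed with the block (0.217% of all genes) and 37 had such a p (63.8%, against 18.1% of all genes). The low 3xTgAD array carries the "20 month" spelling and the low 3xTgAD/Polb+/- arrays carry "20- month".

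**Figure D4:**
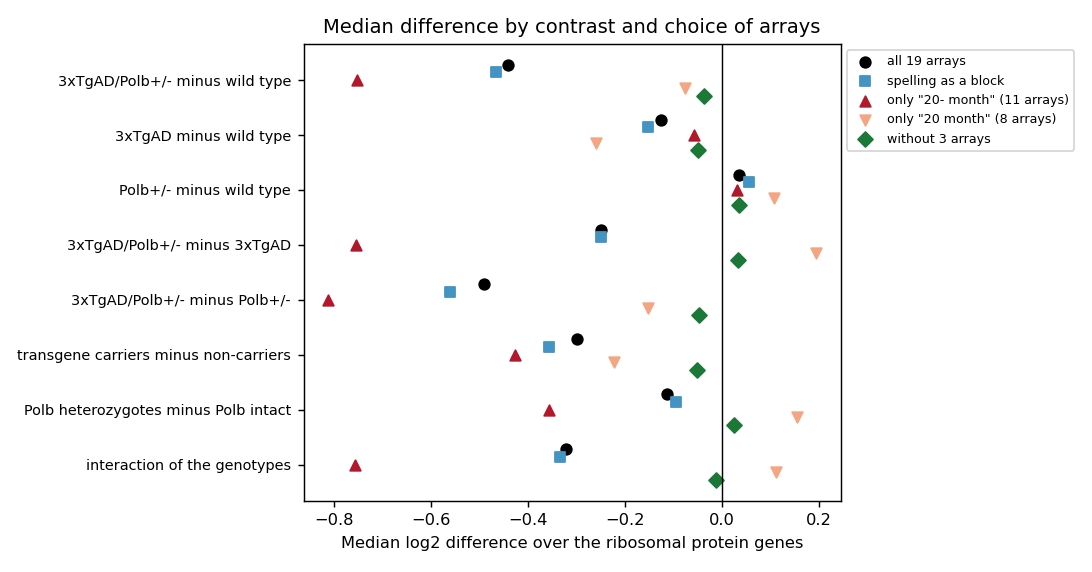
Median log2 difference of the ribosomal protein genes in each of the 8 contrasts (lines) under 5 choices of arrays or model (symbols). The contrasts with 3xTgAD/Polb+/- span -0.81 to 0.19, and without the 3 low arrays every median lies between -0.05 and 0.03.

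Genes of both subunits were mostly below 0. For 3xTgAD/Polb+/- minus wild type, 26 of 31 tested large subunit genes were below 0 with a median of -0.49, and 20 of 22 small subunit genes with a median of -0.44, relatives and paralogs left aside. Of the genes whose proteins lie around the exit of the peptide tunnel, 7 of 8 were below 0 (median -0.53), among them Rpl23a, a docking site for nascent chain factors, at -0.66 ± 0.238 (SE, limma adjusted p = 0.270). Of the genes mutated in human Diamond-Blackfan anaemia, 8 of 9 were below 0 (median -0.52). These shares are near that of all 58 members, of which 87.9% were below 0 with a median of -0.44, against 46.4% of all genes. The proteins of mRNA entry and decoding, Rps2, Rps3, Rps9 and Rps15, were all below 0 (median -0.26). Rps3, which is also known to bind damaged DNA, measured 12.34, 11.45, 12.39 and 12.21 on 3xTgAD/Polb+/-, against 12.33, 12.26, 12.68, 12.44 and 12.23 on wild type. Replicate 2 was far below the wild type arrays and replicate 4 just below the lowest of them, and the difference was -0.29 ± 0.158 (SE, limma adjusted p = 0.436). Another probe of Rps3 that passed the detection filter gave a difference of -0.03.

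The stalk, which recruits elongation factors, was measured by Rplp0 and Rplp1. Rplp1 measured 14.33, 13.99, 14.86 and 14.69 on 3xTgAD/Polb+/-, 14.40 to 14.86 (median 14.86) on 3xTgAD, 14.86, 14.86, 14.75 and 14.86 on Polb+/-, and 14.86, 14.86, 14.69, 14.86 and 14.86 on wild type. Its probe was the brightest of the whole array on 13 of 19 arrays, where quantile normalisation sets it to 1 value, so a value of 14.86 is a ceiling. No difference is given for Rplp1, since 4 of 5 wild type arrays and 1 of 4 3xTgAD/Polb+/- arrays were at this ceiling. Rplp0, a frequent reference gene in quantitative PCR, was at 0.18 ± 0.116 (SE, limma adjusted p = 0.518), and Rpl13a, another, at -0.23 ± 0.141 (SE, limma adjusted p = 0.500). Neither passed the test, and their signs differed.

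Rps6 and Rpsa were among the members named for a set role. Rps6, the substrate by which S6 kinase activity is read, measured 12.48, 11.77, 12.57 and 12.74 on 3xTgAD/Polb+/-, against 12.63, 12.61, 12.24, 12.39 and 12.38 on wild type. Replicate 2 alone was below the wild type arrays, and the difference was -0.06 ± 0.157 (SE, limma adjusted p = 0.906). Rpsa, which also serves as a laminin receptor, was detected on 2 of 4 3xTgAD/Polb+/-, 2 of 6 3xTgAD, 4 of 4 Polb+/- and 4 of 5 wild type arrays, near the detection limit, at -0.02 ± 0.220 (SE, limma adjusted p = 0.980).

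Some paralogs had like differences for 3xTgAD/Polb+/- minus wild type. Rps27l and Rps27 stood at -0.90 ± 0.338 and -0.68 ± 0.284 (SE, limma adjusted p = 0.272 and 0.313), and Rpl36al and Rpl36a at -0.60 ± 0.238 and -0.58 ± 0.257 (SE, limma adjusted p = 0.291 and 0.334). Rpl22 measured 10.92, 10.98, 11.16 and 11.12 on 3xTgAD/Polb+/-, 10.94 to 11.24 (median 11.11) on 3xTgAD, 10.82, 10.92, 10.89 and 10.84 on Polb+/-, and 11.09, 10.95, 10.78, 10.79 and 10.92 on wild type. Transgene carriers were on average higher by 0.18 ± 0.0644 (SE, limma adjusted p = 0.180), with overlap. Its paralog Rpl22l1, whose mRNA Rpl22 is known in mouse to repress, was detected on 0 of 4 3xTgAD/Polb+/- and 0 of 6 3xTgAD arrays, and on 2 of 4 Polb+/- and 2 of 5 wild type arrays. For Rpl22l1 the carriers therefore have only an upper bound, and no fold is given. Rpl3l, the muscle form of Rpl3, was detected on all 19 arrays and had a difference of -0.17 ± 0.174 (SE, limma adjusted p = 0.716).

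The genes with the widest range over the 19 arrays were Rpl30, Rps26 and Rps27l. Rpl30, known in yeast to regulate the splicing of its own transcript, measured 8.79, 8.26, 10.13 and 9.76 on 3xTgAD/Polb+/-, 9.08 to 10.03 (median 9.38) on 3xTgAD, 9.64, 9.61, 9.77 and 10.62 on Polb+/-, and 10.01, 10.22, 9.75, 9.86 and 9.73 on wild type. It was low on both low 3xTgAD/Polb+/- arrays and highest on Polb+/- replicate 4. With the spelling as a block Rpl30 was the only member to pass any contrast, at -0.68 ± 0.150 (SE, limma adjusted p = 0.0386) for transgene carriers minus non-carriers (1.29% of all genes passed), against -0.56 ± 0.210 (SE, limma adjusted p = 0.205) without it.

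Rps27l, whose start window is shown above without a run in capitals, measured 9.19, 8.92, 11.15 and 10.43 on 3xTgAD/Polb+/-, 9.66 to 11.01 (median 10.61) on 3xTgAD, 10.69, 10.66, 10.70 and 10.99 on Polb+/-, and 11.03, 11.06, 10.77, 10.61 and 10.67 on wild type. Its 3xTgAD/Polb+/- arrays spread from far below to above the wild type arrays. Rpl41, the shortest protein of the ribosome, measured 13.60, 13.04, 14.61 and 14.17 on 3xTgAD/Polb+/-, against 14.51, 14.49, 14.51, 14.40 and 14.39 on wild type. Again replicate 3 was above and the other 3 arrays were below every wild type array, and the difference was -0.61 ± 0.219 (SE, limma adjusted p = 0.270). Rpl39, at the exit of the peptide tunnel, had a difference of -0.61 ± 0.223 (SE, limma adjusted p = 0.270).

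The narrowest ranges over the 19 arrays were those of Rpl22, Rpl7l1 and Rpl23, at 0.46, 0.52 and 0.54 on the log2 scale, against 2.36 for Rpl30. None of these 3 genes was below the 16 other arrays on any of the 3 low arrays. The range includes those arrays, so choosing narrow ranges leaves little room for another outcome. Rpl7l1 was at -0.22 ± 0.107 (SE, limma adjusted p = 0.394) for 3xTgAD/Polb+/- minus wild type. Rpl10, a late-joining large subunit protein, was at -0.14 ± 0.163 and Rps9, at the mRNA entry, at -0.23 ± 0.180 (SE, limma adjusted p = 0.759 and 0.612). Rps15a, of the small subunit, measured 10.66, 10.98, 10.82 and 10.61 on 3xTgAD/Polb+/-, 10.53, 10.63, 9.91 and 10.69 on Polb+/-, and 10.59, 10.54, 10.59, 10.73 and 10.77 on wild type. Its Polb+/- replicate 3 was the lowest, and its difference for 3xTgAD/Polb+/- minus wild type was 0.13 ± 0.134 (SE, limma adjusted p = 0.724).

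Other genes of translation had medians nearer to 0. For 3xTgAD/Polb+/- minus wild type, the median was -0.09 over 4 tested genes of ribosome-associated and ubiquitin-fused proteins, 3 of them below 0, and -0.03 over 6 elongation factor genes. It was 0.14 over 20 initiation factor genes, 17 of them above 0 (46.4% of all genes were below 0) and 4 higher at an unadjusted p under 0.05, against 5.62% of all genes. It was -0.01 over 9 genes of TOP mRNA regulators and S6 kinases and -0.04 over 27 ribosome biogenesis genes, 7 of them lower at an unadjusted p under 0.05, against 7.6% of all genes. None of the genes on these lists passed limma's adjusted test in this contrast. Fau, whose product is cleaved into ubiquitin-like and Rps30 parts, measured 11.78, 10.93, 13.03 and 12.37 on 3xTgAD/Polb+/-, 11.80 to 12.77 (median 12.66) on 3xTgAD, 12.58, 12.85, 12.59 and 12.87 on Polb+/-, and 12.64, 12.71, 12.54, 12.59 and 12.70 on wild type. It was low on the same 3 arrays as the members.

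The initiation factor Eif5, which triggers GTP hydrolysis at the start codon, measured 13.07, 13.36, 13.05 and 13.10 on 3xTgAD/Polb+/-, 12.72 to 13.06 (median 13.01) on 3xTgAD, 13.03, 12.93, 12.95 and 12.82 on Polb+/-, and 12.75, 12.69, 12.81, 12.71 and 12.85 on wild type. All 4 3xTgAD/Polb+/- arrays were above every wild type array, at 0.38 ± 0.0953 (SE, limma adjusted p = 0.133). The elongation factor Eef2 was at 0.41 ± 0.201 (SE, limma adjusted p = 0.329) for carriers minus non-carriers, and Tsc2, an inhibitor of mTOR signalling, at 0.35 ± 0.134 (SE, limma adjusted p = 0.488) for 3xTgAD/Polb+/- minus 3xTgAD. Of the genes on these lists, only Ncl, which encodes the nucleolar protein nucleolin, passed a test. Ncl measured 9.06, 9.08, 9.22 and 9.10 on 3xTgAD/Polb+/-, 8.69 to 9.17 (median 9.05) on 3xTgAD, 9.46, 9.39, 9.48 and 9.50 on Polb+/-, and 9.18, 9.32, 9.32, 9.37 and 9.42 on wild type. Its level fell by 0.32 ± 0.0674 (SE) on the log2 scale in transgene carriers relative to non-carriers, with a limma adjusted p of 0.0322. Over 31 alternatives the limma adjusted p of Ncl ran between 0.0174 and 0.660 and 15 of them did not pass. Without the 3 low arrays the difference was -0.27, with a limma adjusted p of 0.0870.

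Mitochondrial gene groups were low on the same 3 arrays as the members. The median shift of 70 respiratory chain and ATP synthase genes was -1.21 on 3xTgAD/Polb+/- replicate 2, -0.66 on 3xTgAD/Polb+/- replicate 1 and -0.59 on 3xTgAD replicate 3. Over 70 mitochondrial ribosomal protein genes it was -0.69, -0.19 and -0.25 in the same order of arrays. Over 34 proteasome genes it was -0.23, -0.02 and -0.03, low on the first of these arrays alone, since other arrays reached -0.11. Initiation factors stood at 0.38, 0.12 and 0.04 on the same arrays. Interneuron markers (5 of 6 listed tested) averaged 11.31, 11.46 and 11.46 there, against 11.80 to 12.00 on wild type, and excitatory neuron markers 10.50, 10.70 and 10.91, against 10.82 to 11.15. Excitatory markers were as low on arrays without the shift, at 10.52 on Polb+/- replicate 1 and 10.70 on 3xTgAD replicate 4. Blood markers (3 of 6 listed tested) averaged 8.17, 9.12 and 9.70 on these arrays, against 9.87 to 10.48 on wild type, and the first pair are the lowest of all 19. The value of 9.70 was not set apart, since 3xTgAD replicates 6 and 5 lay at 9.56 and 9.68. Blood markers were highest on Polb+/- replicate 4, at 11.29, and on 3xTgAD/Polb+/- replicate 3, at 11.02, the arrays on which the ribosomal protein genes also stood highest. Astrocyte and oligodendrocyte markers lay within the wild type range on the 3 low arrays. Microglia markers (7 of 8 listed tested) averaged 8.13, 8.62 and 8.66 there, against 8.39 to 8.99 on wild type. The first value was below that range, as were 8.18 on 3xTgAD/Polb+/- replicate 3 and 8.27 on 3xTgAD replicate 6, without the shift. Endothelial markers lay above their wild type range there (8.09, 7.89 and 7.91, against 7.65 to 7.81). This was not particular to the low arrays. Such values were also seen on 3xTgAD/Polb+/- replicate 3 (8.06), 3xTgAD replicates 2, 5 and 6 (7.82, 8.03 and 7.90) and Polb+/- replicates 1 and 3 (7.83 and 7.99). The remaining arrays did not exceed the range. The number of probes detected was 13993 and 13879 on 3xTgAD/Polb+/- replicates 2 and 1, in the lower part of the "20- month" arrays (13876 to 14396). On 3xTgAD replicate 3 it was 13240, within the "20 month" arrays (13205 to 13562). The median deposited intensity of 3xTgAD replicate 3, 67.7, was the lowest of all 19 arrays. The part of these values in the lower ribosomal protein levels was not tested.

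**Figure D5:**
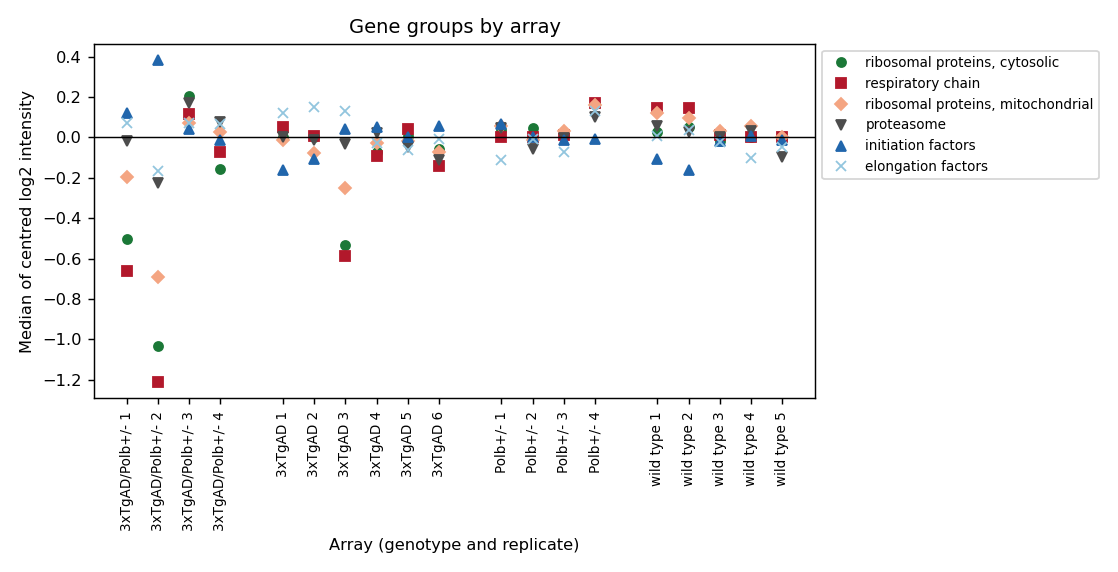
Median over the genes of 6 groups of log2 intensity minus each gene's median over the 19 arrays, by array. The respiratory chain lies below the cytosolic ribosomal proteins on 3xTgAD/Polb+/- 1 and 2 and 3xTgAD 3, and initiation factors lie above 0 there.

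Further probes of the same genes gave a partial check. For 10 members, 11 dimmer probes also passed the filter, and 8 of the 11 had the sign of the brighter probe for 3xTgAD/Polb+/- minus wild type. Their median was -0.27, against -0.32 for the probes used. For Rpl23 the probe used gave 0.01 and the dimmer ones gave -0.33 and -0.23, so its own probes disagree. For Rps19 they gave -0.53 and 0.11, for Rps24 -0.52 and -0.06, and for Rps3 -0.29 and -0.03. The dimmer probes of Rps19 and Rps24 had low mean levels, 5.53 and 5.94. Dimmer probes of Rpl31 and Rpl7l1 were also nearer to 0 than the probes used, and those of Rpl21, Rpl29, Rpl38 and Rps9 were further below 0. Mouse ribosomal protein genes have many processed copies in the genome, and a probe may report a copy together with its gene.

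The other 7 members did not pass the detection filter. Rpl14, Rpl17, Rpl39l, Rplp2 and Rps23 were detected on 0 of 19 arrays and Rpl6 and Rps23rg1 on 1 each, at mean log2 intensities of 4.48 to 4.80. Rps23rg1, a retroposed copy of Rps23 known in mouse to lower amyloid beta and tau phosphorylation, thus gave no comparison here. Rpl14, Rpl17, Rpl6, Rplp2 and Rps23 are needed for every ribosome, and a probe at background is no measure of such a gene. Rpl11, Rps18, Rps27a and Rpl10l were not analysed here.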

How the data were processed

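The deposited table held the authors' bead-averaged intensity of each probe on each array and beside it a detection p-value, per the file headers. A second deposited table held the authors' score per probe, which equals the z score of log10 intensity within each array to within 5e-10. GenomeStudio 1.9.0 is named per the submitters' processing notes. Background correction and other upstream steps are not given in the sources used here. The deposited intensities were background-corrected and quantile-normalised by neqc in limma 3.58.1 (R 4.3.3, offset 16) and are given as log2. Probes detected at p under 0.05 on at least 4 arrays were kept (14942 of 25697), and the brightest probe stood for each symbol of the platform annotation. Because a probe's brightness depends on its sequence, levels are not compared between genes. All 19 arrays and 11072 genes entered a single limma fit (lmFit, eBayes) with genotype as the factor, which had 15 residual degrees of freedom and a prior of 4.423, and gave 8 contrasts. P-values were two-sided and adjusted by Benjamini-Hochberg per contrast, with a threshold of 0.05. Replicates are separate samples by their labels, and p-values measure the spread between these samples.

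The fit was tested on simulated data with independent noise for each gene and array. Genes that move together on an array were not simulated, so the test does not cover the shifts described here. The members, the gene lists and the rule for named genes were chosen with earlier results of these data known. By that rule the text names the 3 members with the smallest p in each contrast, the brightest, dimmest, widest and narrowest, those with set roles, and the gene with the smallest p or those that passed from each list of other translation genes. Rpl35, Rpl35a, Rps3a1 and the genes named only as undetected or as members of a group were named after their values were seen. Promoter sequences are RefSeq's. The alternatives were other normalisations, filters and probe rules, the spelling and the replicate number as blocks, each spelling alone, arrays in doubt left out, and each array left out in turn.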

Additional observations from a re-analysis of the deposited data

Results flagged for a closer look

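Among 140 sets of 4 to 6 arrays of 1 genotype, over 35 genes or medians, 15 held an array far from the rest by Dixon's test. For unselected sets chance gives about 1 in 20, but the 15 cannot be set against that share. Some of the 35 were picked by their values in these data, and many of the genes move together on the same arrays. Besides, 3 of the 15 are Rplp1, whose arrays tie at a ceiling of 14.86, so that any array below it stands apart whatever its value. Of the 15, 6 were 3xTgAD replicate 3. There the median of the 58 ribosomal protein genes was 11.72 (the other 3xTgAD arrays 12.32 to 12.35), Rplp1 was 14.4 (others 14.86), Rpl24 11.65 (12.02 to 12.24), Rpl34 10.81 (11.89 to 12.31), Fau 11.8 (12.41 to 12.77) and Ncl 8.695 (9.026 to 9.173). Another 3 were Polb+/- replicate 4, with Rpl30 at 10.62 (others 9.608 to 9.771), Rps27l at 10.99 (10.66 to 10.7) and Rpl23 at 14.03 (14.44 to 14.49). On wild type replicate 1, Rpl5 was 12.09 (others 12.3 to 12.39) and Rpsa 5.118 (5.612 to 5.714). On 3xTgAD/Polb+/- replicate 3, Rpl4 was 8.863 (others 9.263 to 9.298), and on Polb+/- replicate 1, Rpl39 was 12.57 (12.69 to 12.71). Rplp1 was 14.75 on Polb+/- replicate 3 and 14.69 on wild type replicate 3, where the other arrays of each genotype were at 14.86. No such flag fell on the low 3xTgAD/Polb+/- replicates 1 and 2, since a pair of low arrays in a group of 4 leaves no single gap.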

How the results depend on the processing

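No member passed in any contrast with other normalisations, the authors' z scores, other detection filters, averaged probes, 3xTgAD replicates 2 and 5 averaged, or both 3xTgAD arrays with low Polb left out. With the replicate block none passed either, with a median of -0.42 for 3xTgAD/Polb+/- minus wild type. The labels of arrays of equal number do not say what the number stands for. Their correlations ran from -0.34 to 0.44, 7 of 25 pairs were over 0.1, and 8 of 19 arrays were closest to their own number. All 7 pairs over 0.1 joined arrays of the same age spelling, and every pair of unlike spellings was below 0. Within the "20- month" arrays the members past the test were 33 for 3xTgAD/Polb+/- minus wild type, 33 minus 3xTgAD (median -0.75), 34 minus Polb+/-, 30 for carriers minus non-carriers, 13 for Polb heterozygotes minus intact and 18 for the interaction (median -0.76). With the spelling as a block 1 passed, for carriers. Within the "20 month" arrays the medians were 0.19 (3xTgAD/Polb+/- minus 3xTgAD), -0.15 (minus Polb+/-), -0.075 (minus wild type) and 0.11 (interaction). Without the 3 low arrays they were -0.036 (3xTgAD/Polb+/- minus wild type) and -0.048 (minus Polb+/-). Leaving out each array in turn moved the median between -0.65 and -0.21 for 3xTgAD/Polb+/- minus wild type and between -0.48 and -0.043 for minus 3xTgAD, and gave 0 to 17 members past the test for 3xTgAD/Polb+/- minus wild type and minus Polb+/- and 0 to 20 for carriers, the highest each without 3xTgAD/Polb+/- replicate 3. Of the differences of single genes for 3xTgAD/Polb+/- minus wild type, the sign turned within the "20 month" arrays for Rpl10 (0.18), Rpl23 (-0.21), Rps3 (0.0035), Rps6 (0.036) and Rps9 (0.15). It turned without the 3 low arrays for Rpl10 (0.18), Rpl23 (-0.20), Rpl30 (0.033), Rpl36al (0.031), Rpl5 (-0.033), Rps6 (0.21) and Rps9 (0.15). It turned for Rpl23 with probes averaged (-0.19), and for Rpsa with the spelling block (0.026), the "20- month" arrays (0.14) and the replicate block (0.046). Leaving out single arrays gave -0.26 to 0.092 for Rpl10, -0.062 to 0.11 for Rpl23, -0.17 to 0.15 for Rps6, -0.39 to 0.039 for Rps9 and -0.17 to 0.11 for Rpsa. Within "20 month" the sign also turned for 3xTgAD/Polb+/- minus 3xTgAD in Rpl23a (0.065), Rpl24 (0.087) and the capped Rplp1 (0.067), for Polb+/- minus wild type in Rps15a (0.12) and for carriers in Eef2 (-0.0245). The cause was not tested. Array number and dim probes such as Rpsa and Rpl22l1 limit what can be seen.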

Other observations

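Most genes of the mitochondrial groups also had negative differences for 3xTgAD/Polb+/- minus wild type. Of 70 respiratory chain and ATP synthase genes 62 were below 0 (46.4% of all genes were), with a median log2 difference of -0.55, and 45 had an unadjusted p under 0.05 in that direction, against 7.6% of all genes. Of 70 mitochondrial ribosomal protein genes 58 were below 0, with a median of -0.23, and 25 had such a p. Of 34 proteasome genes 20 were below 0, with a median of -0.06, and 1 had such a p. None of these genes passed limma's adjusted test, and the low arrays are the same as for the cytosolic ribosomal proteins.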
